A study of Mus musculus with 8 samples.

Results

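The genes described here are the secreted factors, receptors and regulators of the complement and coagulation cascades, other than serpins, in mouse liver. They were chosen by name, as 53 gene symbols from complement initiation to fibrinolysis, and not by measured values. Of these, 49 had a probe with that symbol and 48 were measured on every array, among 15346 genes tested. C3, Cfd, C7 and Cpb2 had no probe with their symbol in the tables used and are not analysed here. C5ar1, a receptor for the C5a fragment, had a value on 5 arrays only.

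Liver RNA came from C3H/HeN mice of both sexes, aged 8 weeks, on 8 Agilent 2-colour arrays. Mice received recombinant murine IL1-beta intraperitoneally at 25 µg/kg, or its vehicle, on alternate days over 2 weeks, and livers were removed 1 h after the last injection. The 4 groups (female control, male control, female IL1-beta, male IL1-beta) held 2 arrays each, called biological replicates in the labels. Per the labels, liver was labelled with Cy5 and a reference pool from 11 mouse cell lines with Cy3, with no dye swap, so that a dye effect stays in each ratio. Values are log2 ratios of liver over pool, as means over a gene's probes, and errors are standard errors of limma contrasts. The labels do not say whether replicates came from separate mice or pools, so p-values measure the spread between 2 arrays a group.

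Complement is a cascade of plasma proteases that marks surfaces for uptake and ends in a pore, the membrane attack complex. Coagulation is a cascade of plasma proteases that ends in fibrin, which the plasmin system dissolves. Hepatocytes make most of the circulating proteins of both cascades, while endothelium, macrophages and platelets make several cofactors and receptors. Several of these genes are known as acute-phase genes, and IL-1 is a known inducer of that response, in part through IL-6.

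The promoters of the terminal complement genes are shown because 5 of the 6 measured passed in one direction on the control arrays, and those of the fibrinogen genes because they are textbook acute-phase genes that lay far above the pool. Sequences are from RefSeq (GRCm38.p6), 5′ to 3′ on the gene's strand, from 250 bases before to 50 bases after the gene start. Capitals mark matches, on either strand, to 4 motifs known from acute-phase and hepatocyte promoters: a STAT dimer element (TTCNNNGAA), a C/EBP element (TTGCNNAA), an HNF1 element (GTTAATNAT) and an IL-6 response element (CTGGGAA). No 2 matches overlapped in these 8 promoters, and C8g had no row in the promoter table used.
C6 chr15:4726960-4727259 (plus strand): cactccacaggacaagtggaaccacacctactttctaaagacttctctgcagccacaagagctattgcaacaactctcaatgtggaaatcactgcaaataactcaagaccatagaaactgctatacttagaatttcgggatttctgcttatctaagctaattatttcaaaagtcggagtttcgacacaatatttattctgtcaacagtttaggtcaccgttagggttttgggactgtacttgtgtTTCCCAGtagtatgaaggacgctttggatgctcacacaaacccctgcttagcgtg
C8a chr4:104876349-104876648 (minus strand): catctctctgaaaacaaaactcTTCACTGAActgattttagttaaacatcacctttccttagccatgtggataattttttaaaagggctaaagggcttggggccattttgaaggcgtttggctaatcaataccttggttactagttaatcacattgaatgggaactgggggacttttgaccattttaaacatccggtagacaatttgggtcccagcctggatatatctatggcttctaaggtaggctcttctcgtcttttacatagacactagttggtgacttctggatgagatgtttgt
C8b chr4:104766067-104766366 (plus strand): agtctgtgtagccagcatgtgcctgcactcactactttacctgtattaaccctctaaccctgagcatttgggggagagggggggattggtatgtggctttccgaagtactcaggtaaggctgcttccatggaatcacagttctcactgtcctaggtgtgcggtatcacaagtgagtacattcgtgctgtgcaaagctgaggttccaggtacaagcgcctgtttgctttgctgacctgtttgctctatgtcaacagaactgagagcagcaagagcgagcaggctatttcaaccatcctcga
C9 chr15:6445096-6445395 (plus strand): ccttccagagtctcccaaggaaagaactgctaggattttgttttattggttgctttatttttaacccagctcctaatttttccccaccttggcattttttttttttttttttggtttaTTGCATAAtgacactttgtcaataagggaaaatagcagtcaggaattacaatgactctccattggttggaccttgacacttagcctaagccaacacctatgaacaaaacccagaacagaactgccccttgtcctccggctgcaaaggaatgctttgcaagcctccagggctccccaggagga
Hc chr2:35061363-35061662 (minus strand): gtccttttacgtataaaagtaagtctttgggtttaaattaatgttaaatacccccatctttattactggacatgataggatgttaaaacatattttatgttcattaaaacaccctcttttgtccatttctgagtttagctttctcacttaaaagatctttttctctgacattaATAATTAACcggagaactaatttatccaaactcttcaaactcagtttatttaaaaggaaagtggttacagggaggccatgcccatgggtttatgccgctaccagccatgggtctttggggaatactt
Fga chr3:83025903-83026202 (plus strand): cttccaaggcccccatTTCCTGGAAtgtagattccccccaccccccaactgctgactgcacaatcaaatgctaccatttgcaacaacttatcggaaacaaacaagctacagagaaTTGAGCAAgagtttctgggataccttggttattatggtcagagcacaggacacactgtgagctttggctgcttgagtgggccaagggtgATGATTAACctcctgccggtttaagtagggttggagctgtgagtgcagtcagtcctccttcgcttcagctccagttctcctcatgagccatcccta
Fgb chr3:83049814-83050113 (minus strand): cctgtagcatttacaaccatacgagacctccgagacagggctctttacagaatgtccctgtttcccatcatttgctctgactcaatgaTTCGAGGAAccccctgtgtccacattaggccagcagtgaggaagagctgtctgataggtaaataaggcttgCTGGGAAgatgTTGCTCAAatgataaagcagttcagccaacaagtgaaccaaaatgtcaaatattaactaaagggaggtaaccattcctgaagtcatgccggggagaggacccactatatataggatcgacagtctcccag
Fgg chr3:83007474-83007773 (plus strand): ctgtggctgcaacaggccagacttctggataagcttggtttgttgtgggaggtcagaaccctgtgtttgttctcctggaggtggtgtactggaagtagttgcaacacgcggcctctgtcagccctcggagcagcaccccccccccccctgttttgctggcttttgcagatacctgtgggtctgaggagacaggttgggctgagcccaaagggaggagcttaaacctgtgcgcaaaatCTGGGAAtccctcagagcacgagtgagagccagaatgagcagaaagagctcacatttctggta

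Fga and Fgb, which encode the A-alpha and B-beta chains of fibrinogen, each held 3 matches. In Fga these were a STAT dimer element starting at -234, and, on the opposite strand, a C/EBP element at -135 and an HNF1 element at -46 from the gene start. In Fgb they were a STAT dimer element at -162, an IL-6 response element at -91 and a C/EBP element at -80. Fgg, the gamma chain, held an IL-6 response element at -13. Among the terminal genes, C8a held a STAT dimer element at -228 and C9 a C/EBP element at -132. On the opposite strand Hc held an HNF1 element at -77 and C6 an IL-6 response element at -5. C8b held none of the 4. Of the 48 measured members, 35 had a promoter row. The STAT dimer element was in 7 of these and in 8.3% of all 32851 promoters of this length. The C/EBP element was in 7 of the 35 members against 10.8% of all promoters. The HNF1 element was in 4 of 35 against 0.801%, and the IL-6 response element in 8 of 35 against 11.1%. A member counted if any of its promoters matched, while the share of all is per promoter. In the full member list 3 genes had over 1 promoter. A match says only that the letters are present.

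The labels were checked on the arrays before any comparison. On the IL1-beta arrays, 12 of 12 hepatocyte genes lay above the pool, with list medians of 5.91 to 6.24, and a cell cycle list lay below it at -3.89 to -3.31. Xist, transcribed from the inactive X chromosome, lay at 2.11 and 1.52 in females and at -4.32 and -4.36 in males, as the labels say. The 4 control arrays did not look like liver against such a pool: the hepatocyte list lay at -0.36 to 0.18. They also opposed their sex labels, with Xist at -4.94 and -4.57 on the arrays labelled female and at 5.40 and 5.78 on those labelled male. Arrays of unlike control labels correlated at -0.722 to -0.478 over all genes (-0.882 to -0.824 over the members), and arrays of the same control label at 0.613 to 0.628. The direction of the control ratios is therefore not settled. Sex differences on them are given as labelled and also with the sign turned and divided by 2. The turned form is male-labelled minus female-labelled, with Xist positive, and takes each ratio to set the sexes against each other, which no label states. Both forms have the same test. If control arrays with opposite labels share RNA, their p-values are too small.

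In IL1-beta-treated liver, most complement and clotting genes were more abundant than in the cell line pool, while 7 members, among them tissue factor, thrombomodulin and the plasminogen activators, were less so. Of the 48 members, 41 were above the pool and 7 below it on the mean of the 4 IL1-beta arrays (limma, Benjamini-Hochberg adjusted p under 0.05), where 78.5% of all genes passed in either direction. The median was 5.54 against -0.11 over all genes. Every one of the 41 lay above 0 on all 4 arrays and every one of the 7 below 0. By value, 33 members lay above 4 and 17 above 6. This contrast sets liver against cell lines and carries no control mice. Some cell type lists lay above the pool too, with 12 of 12 hepatocyte genes (median 6.05) and 8 of 8 neutrophil genes (5.46). So did 10 of 11 Kupffer cell and macrophage genes (5.16) and 12 of 12 endothelium genes (2.98). Other lists were mixed. Of 12 stellate cell genes 6 were higher and 6 lower (median -0.45), and of 6 cholangiocyte genes 1 and 3 (-0.85). Of 8 platelet genes 2 were higher and 2 lower (-0.12), of 9 lymphocyte genes 4 and 3 (0.30), and of 7 adipocyte genes 3 and 1 (0.90).

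Terminal complement genes formed one of the highest groups, with a role median of 6.87 and 6 of 6 above the pool. C9, which polymerises into the pore, measured 7.54 and 7.64 in females and 7.67 and 8.04 in males, a mean of 7.72 ± 0.15 (211-fold). Hc, which encodes complement C5, measured 7.11 and 7.18 in females and 7.54 and 7.64 in males. Both male arrays lay above both female arrays for each gene, though for C9 the nearest read 7.67 and 7.64. Female minus male, C9 differed by -0.27 ± 0.29, less than its standard error, and neither gene passed between the sexes. The sexes did not overlap for 36.9% of all genes. C8a and C8b, 2 chains of C8, spanned 6.54 to 7.04 together, and C8g, the third chain, 5.85 to 6.21. C6, which joins C5b to start the pore, lay lowest of the group in females at 3.99 and 4.45, and reached 5.91 and 5.78 in males.

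Initiators of the lectin and classical pathways had a median of 5.33, and 7 of 7 lay above the pool. Mbl1 and Mbl2, the mannose-binding lectins, spanned 6.18 to 6.61 and 5.71 to 6.21. Masp2, the protease that cleaves C4 and C2, spanned 5.51 to 5.76, and C2 itself, the protease part of the C3 convertase, 5.12 to 5.68. C4b, the other convertase part, read 4.48 and 4.15 in females and 5.18 and 5.48 in males. A near-identical copy, C4a, may add to its signal. Fcna, a ficolin of macrophages, lay at 3.08 to 4.29 and Masp1 at 3.18 to 3.33. Masp1 is a mean of probes that disagreed, with 2 at 5.32 to 6.05 and 2 at 0.27 to 1.03.

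Of the amplification loop, Cfb, the protease of the alternative pathway convertase, measured 6.28 and 6.28 in females and 6.18 and 6.58 in males. Cfp, or properdin, which stabilises that convertase and is made by myeloid cells, had the lowest mean above the pool, at 1.51 ± 0.10. Among regulators Cfi, the protease that inactivates C3b and C4b, stood highest of all members at 8.54 and 9.27 in females and 8.94 and 9.43 in males, a mean of 9.04 ± 0.15 (528-fold). The fluid-phase inhibitors Vtn and Clu spanned 5.45 to 5.88 and 4.52 to 5.08. The membrane-bound inhibitors Cd55, which speeds convertase decay, and Cd59a, which blocks the pore, spanned 2.63 to 2.92 and 3.40 to 4.19. C4bp, a cofactor of Cfi, lay at 4.14 to 4.70, but as the mean of a probe at 7.11 to 7.51 and another at 0.81 to 2.28. The receptor C3ar1 lay below the pool at -1.17 ± 0.20. C5ar1 read 0.04 and -0.48 in females and -0.41 and 0.24 in males, on both sides of 0, and was not tested.

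Contact-phase genes had a median of 6.47 and all 4 lay above the pool: F11, F12, the prekallikrein gene Klkb1 and the kininogen gene Kng1 spanned 5.32 to 7.01 together. Clotting factors differed widely. F5, the cofactor of factor Xa, measured 7.04 to 7.57, F2, or prothrombin, 6.61 to 7.37, and F7 and F10, vitamin K-dependent proteases, 5.08 to 5.68 together. F9, another such protease, lay at 4.98 to 5.08 as the mean of a probe at 6.51 to 6.71 and another at 3.26 to 3.62. F8, a cofactor made mainly by endothelium, lay at 2.96 to 4.05, and Vwf, its carrier from endothelium and platelets, at 1.28 to 2.49. F3, or tissue factor, which starts clotting outside vessels, was 4.61-fold below the pool at -2.34 and -2.25 in females and -2.22 and -2.01 in males.

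Fibrin formation had the highest role median, 7.02. Fgg measured 8.04 and 8.27 in females and 7.97 and 8.97 in males, Fgb 6.61, 6.68, 7.21 and 7.57 in the same order, and Fga 6.64 to 7.01. The subunits of factor XIII, which cross-links fibrin, lay far apart. F13b, the plasma carrier subunit, was at 8.49 ± 0.12 (359-fold above the pool). F13a1, the catalytic subunit known from macrophages and megakaryocytes, was at -2.75 ± 0.25.

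Anticoagulants and fibrinolysis genes held the other members below the pool. Proc, the protein C zymogen, and Proz, the protein Z gene, lay at 5.50 to 6.01 together, and Pros1, the protein C cofactor, at 1.52 to 1.96. Thbd, or thrombomodulin, the endothelial receptor for protein C activation, lay at -2.54 ± 0.18. Tfpi, the inhibitor of tissue factor, lay at -1.21 ± 0.25 and had the largest adjusted p of the 48, 0.00312. Its 3 probes disagreed, with IL1-beta means of -0.27, -1.10 and -2.26, the first of them reaching 0.00498 on male IL1-beta 1. Plg, or plasminogen, and Hrg, a plasma protein that binds it, spanned 6.59 to 7.24 and 5.45 to 5.58. The plasminogen activators were below the pool, Plat at -1.77 ± 0.18 and Plau at -3.78 ± 0.30 (13.8-fold). Among pathway genes outside the member list, 19 of 25 other complement genes were higher and 4 lower than the pool. Of other clotting genes 14 of 31 were higher and 5 lower, where 78.5% of all genes passed in either direction. C1qa, C1qb, C1qc and Vsig4 are in both this complement list and the Kupffer cell list.

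**Figure D1:**
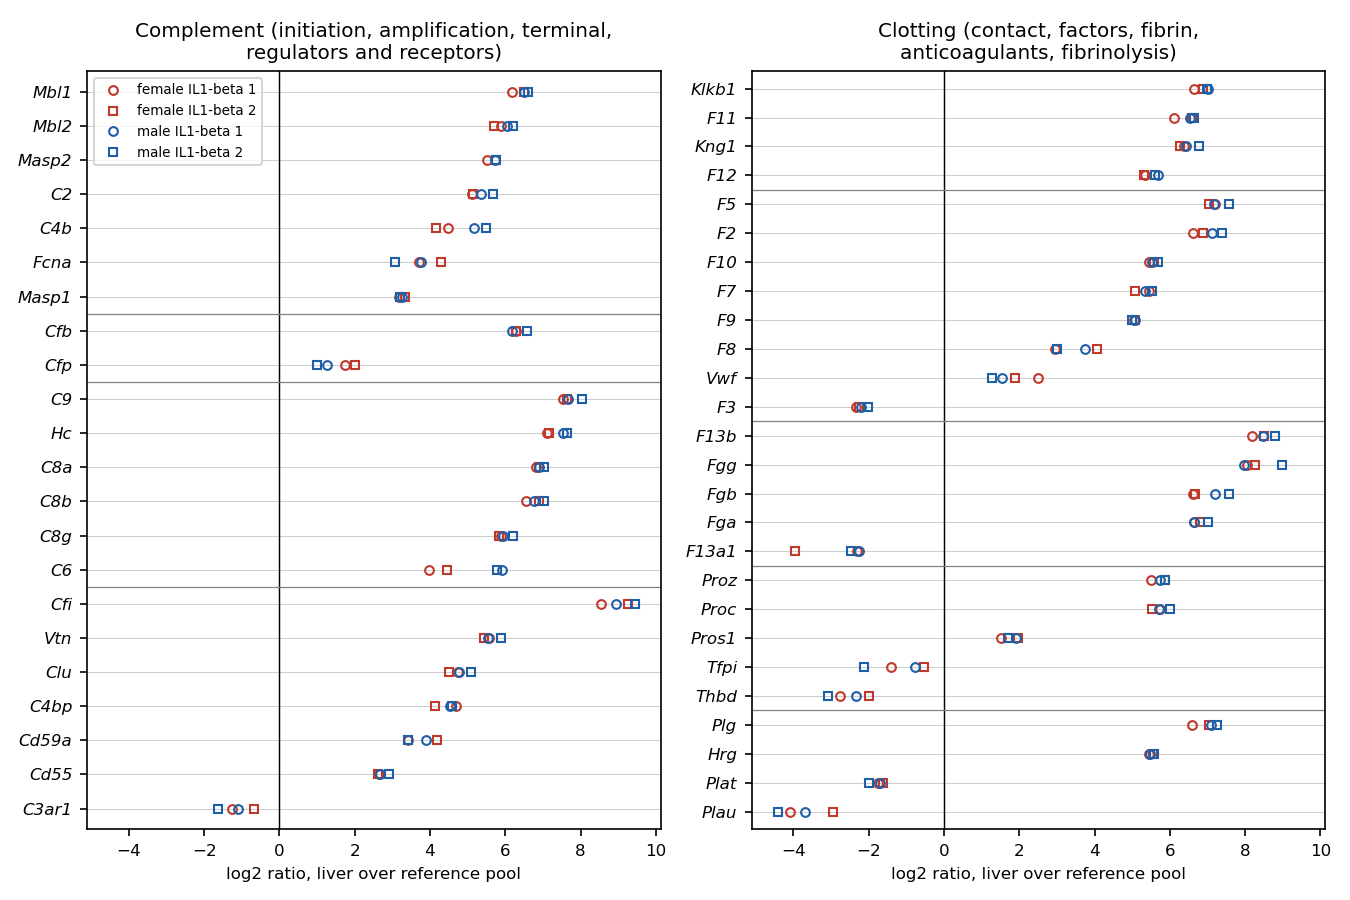
Log2 ratio of liver over the reference pool for the 48 measured members, grouped by role, with each point 1 IL1-beta array of the females or males. Members span from Plau at -3.78 to Cfi at 9.04 on average, and the 7 members left of 0 have all 4 arrays there.

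The comparison of IL1-beta with control asks which genes the cytokine changed, and on these arrays it sets unlike quantities side by side, since the control ratios did not behave as liver over pool. As computed, 41 of 48 members were higher and 7 lower in IL1-beta averaged over the sexes, where 69.2% of all genes passed. With the sign of the control ratios turned, the count was 41 higher and 7 lower, where 71.3% of all genes passed. Cfb was 6.40 higher as labelled and 6.26 higher turned, Cfi 9.10 and 8.99, and Plau -3.65 and -3.91. These values stood close to each gene's own ratio over the pool, and the hepatocyte list behaved alike, with 12 of 12 higher at a median of 6.14. Induction by IL1-beta and the change in what the arrays compare cannot be told apart, so no member's response to the cytokine can be read from them.

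Within the sexes the value also depended on the sign given to the control ratios. For C6 the IL1-beta difference was 2.00 in females and 8.18 in males as labelled, and 6.44 and 3.51 with the sign of the control ratios turned. For F13a1 it was -0.44 in females and -5.25 in males as labelled, and -5.83 and 0.53 turned. Thbd went from -0.78 and -4.59 to -3.98 and -0.81. Genes with little difference between control arrays moved less, as for Cfb, at 6.41 in females and 6.38 in males as labelled and 6.15 and 6.38 turned.

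Between IL1-beta-treated females and males the labels held, and no member passed the test. By value, 36 of 48 members were lower in females and 12 higher (25% positive, against 49.3% of all genes), with 17 of 22 complement genes and 19 of 26 clotting and fibrinolysis genes lower and a median of -0.18 (female minus male) against -0.01 over all genes. By limma 0 of 48 passed, where 0.163% of all genes (25) did, and 7 members had an unadjusted p under 0.05, as had 1270 of all genes. Female and male arrays did not overlap for 18 members, 16 of them lower and 2 higher in females, where 36.9% of all genes did not overlap.

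C6 had the widest gap, at 3.99 and 4.45 in females and 5.91 and 5.78 in males. The difference was -1.63 ± 0.40 with an adjusted p of 0.300. C4b read 4.48 and 4.15 in females against 5.18 and 5.48 in males, a difference of -1.01 ± 0.24 (adjusted p 0.284). Fgb read 6.61 and 6.68 against 7.21 and 7.57, a difference of -0.75 ± 0.20 (adjusted p 0.334). In each of these 3 genes both female arrays were below both male arrays. Hc, at -0.45 ± 0.17, and F2, at -0.50 ± 0.21, were the other members lower in females with an unadjusted p under 0.05 (adjusted 0.531 and 0.598). The 6 terminal complement genes, the 4 contact-phase genes and the 5 fibrin genes were all lower in females by value. Several of these differences were smaller than their standard errors, as for C8a (-0.12 ± 0.20), C8b (-0.18 ± 0.30) and Fga (-0.10 ± 0.28). Each other role held members higher in females. A list of other acute-phase liver genes leaned the same way, with 4 of 18 higher in females.

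Of the 12 members higher in females by value, Cfp and Vwf had an unadjusted p under 0.05. Cfp read 1.75 and 2.01 in females against 1.26 and 1.01 in males, a difference of 0.75 ± 0.20 (adjusted p 0.338). Vwf read 2.49 and 1.90 against 1.55 and 1.28, a difference of 0.78 ± 0.25 (adjusted p 0.412). These were the 2 members with both female arrays above both male arrays. The hepatocyte list had a median of -0.27 with 10 of 12 genes negative, and the endothelium list, which holds Vwf, a median of 0.31 with 10 of 12 positive. Their part in the leanings of the members was not tested, and in whole liver fewer cells of a type and less RNA per cell cannot be told apart. Of other complement genes 0 of 25 passed, with Cr2, a complement receptor of B cells, at 1.06 ± 0.29 (adjusted p 0.343), and of other clotting genes 0 of 31, with Procr, the endothelial protein C receptor, at 0.82 ± 0.24 (adjusted p 0.369).

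**Figure D2:**
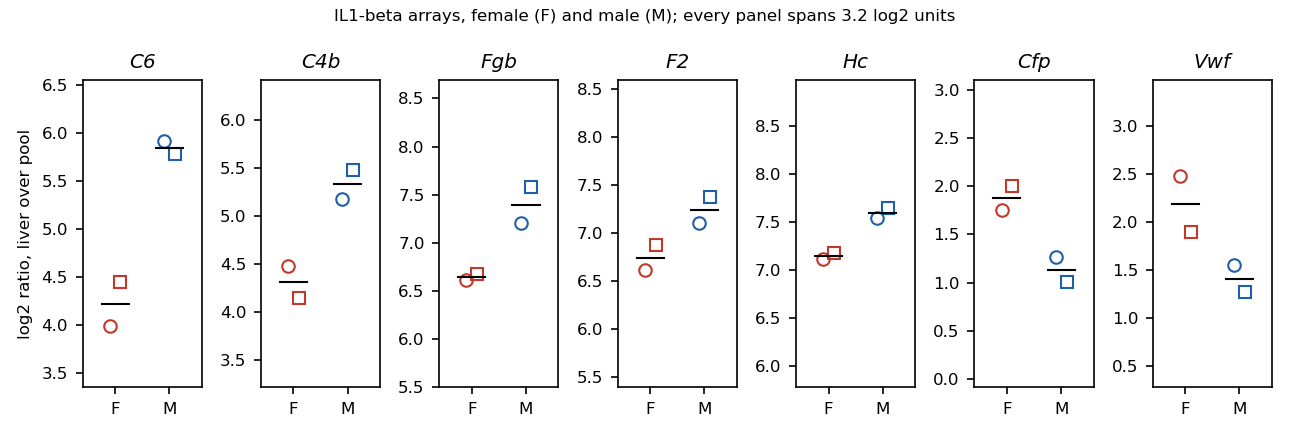
Log2 liver-over-pool ratio on each IL1-beta array for members with the smallest p between the sexes, with points for the 2 female and the 2 male arrays. For C6 the females lie at 3.99 and 4.45 and the males at 5.91 and 5.78, while for Vwf the females lie above the males.

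On the control arrays some members differed by label, in both directions, and 30 of 48 did not pass. Of 48 members, 18 passed (limma, adjusted p under 0.05), with 7 above and 11 below on the female-labelled arrays, and 21.4% of all genes passed. After turning and dividing by 2, the 11 lie on the side of Xist and the 7 on the opposite side, and 4 of the 18 exceed 2-fold. The count was 11 without female control 2 and 11 without male control 1. Of the 18 calls, 9 held under every alternative setting run and 9 did not. The arrays of the 2 labels did not overlap for 36 members, 26 towards Xist and 10 opposite, where 67.4% of all genes did not overlap. Differences that follow are in the turned form unless given per array, and their sign rests on Xist, not on the labels.

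Terminal complement genes lay opposite to Xist: 5 of 6 passed, the exception being C8g at -0.23 ± 0.09 (adjusted p 0.120). C6 read 2.79 and 1.65 on the arrays labelled female and -2.60 and -2.07 on those labelled male. Its turned difference was -2.28 ± 0.20 (4.84-fold, adjusted p 0.000864). Under quantile normalization it was -4.54, and all 18 called differences were 1.43 to 2.54 times as large, so that their sizes depend on the scaling. C8a read 0.98 and 0.69 against -1.17 and -0.89, or -0.93 ± 0.10 turned (adjusted p 0.00185). For both genes the labelled groups lay on opposite sides of 0. C8b was at -0.75 ± 0.15, C9 at -0.63 ± 0.15 and Hc at -0.42 ± 0.09 (adjusted p 0.0157, 0.0254 and 0.0164). The calls of C8b and C9 were lost without female control 1 or male control 1 and when only the control arrays were fitted, and that of Hc without any 1 of the 4 control arrays, while C6 and C8a passed under all 18 alternatives (other normalizations, filters, probe rules and blocks, and each array left out). The convertase genes of the classical and lectin pathways lay on the same side, C4b at -0.88 ± 0.12 (adjusted p 0.00424) and C2 at -0.55 ± 0.10 (adjusted p 0.0108). The call of C2 was lost without female control 2 or male control 2. Cfb, of the alternative pathway convertase, did not pass at 0.07 ± 0.11 (adjusted p 0.686).

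The largest difference towards Xist was that of F13a1, at -2.70 and -2.69 on the arrays labelled female and 2.56 and 3.22 on those labelled male. Turned it was 2.79 ± 0.25 (6.93-fold, adjusted p 0.000987). Thbd read -1.73 and -1.47 against 2.09 and 1.69, or 1.75 ± 0.18 (adjusted p 0.00154). Plat, or tissue plasminogen activator, read -0.85 and -1.35 against 1.95 and 0.91, or 1.27 ± 0.18 (adjusted p 0.00507). In each gene the labelled groups lay on opposite sides of 0, and each call held under all 18 settings. Vwf at 0.90 ± 0.12 and Cfp at 0.81 ± 0.10 lay on the same side (adjusted p 0.00457 and 0.0031). With exact zeros kept as values, Plat was at 0.77 and Vwf at 0.56, while F13a1, Thbd and Cfp kept their values.

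Some cell type markers also differed on the control arrays. Towards Xist, 8 of 11 Kupffer cell and macrophage genes passed, 9 of 12 stellate cell genes and 6 of 7 adipocyte genes. So did 4 of 12 endothelium genes, 3 of 8 neutrophil genes and 2 of 8 platelet genes. No call went the other way in these lists, and 21.4% of all genes passed in either direction. Whether a list exceeded that share was not tested. Of 9 lymphocyte genes 5 passed towards Xist and 1 opposite, and of 6 cholangiocyte genes 2 and 1. The Kupffer list medians were -1.11 and -0.73 on the arrays labelled female and 0.90 and 0.62 on those labelled male. The endothelium list, which holds Vwf, lay at -0.27 and -0.35 against 0.39 and 0.34. The adipocyte list lay at -2.72 and -3.22 against 0.74 and 4.15. The hepatocyte list had the smallest share of calls of these, with 2 of 12 towards Xist and medians of -0.10 and -0.36 against 0.01 and 0.18. By median the cholangiocyte list differed less, at -0.29 and 0.17 against 0.12 and -0.12. The part of these cell types in the differences of F13a1, Thbd, Plat, Vwf and Cfp was not tested.

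Several liver-made genes also lay towards Xist. Mbl2 read -1.07 and -0.57 on the arrays labelled female and 1.07 and 0.82 on those labelled male, or 0.88 ± 0.11 (adjusted p 0.00361). Mbl1, its paralog, read -0.32 and -0.43 against -0.25 and -0.36 and did not pass, so that the lectins differed from each other on these arrays by value. Fga at 0.61 ± 0.14, F7 at 0.60 ± 0.12, Kng1 at 0.57 ± 0.11 and Hrg at 0.49 ± 0.10 passed (adjusted p 0.0237, 0.0145, 0.0138 and 0.0196). Signal of Kng1 and its close copy Kng2 may mix. Fcna passed narrowly at 0.53 ± 0.15 (adjusted p 0.0475). Fcna lost its call in 9 of 18 settings, among them without any 1 of the 4 control arrays. Fga, F7, Kng1 and Hrg lost theirs without female control 2, and without male control 1 (F7, Kng1, Hrg), male control 2 (Fga, Hrg) or female control 1 (F7). Fga and Hrg also lost them when only the control arrays were fitted, and Kng1 with the probe of the highest mean ratio, whereas Mbl2 kept its call in all 18 settings. The other fibrinogen chains had values of 0.30 ± 0.10 for Fgb and 0.34 ± 0.16 for Fgg and did not pass (adjusted p 0.0747 and 0.187). Of the regulators and receptors of complement 0 of 7 passed, as means over a gene's probes. Probes of Cd55 disagreed on these arrays. Those at -0.42 and -0.45 against 0.17 and 0.38, and -0.22 and -0.28 against 0.88 and 0.91, lay towards Xist. Another lay opposite, at 0.34 and 1.29 against -0.26 and 0.08. For C4bp a probe read 0.57 and 0.40 against -0.76 and -0.15, and another 0.81 and -0.92 against -0.43 and 0.77. Such means can hide differences of single probes.

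**Figure D3:**
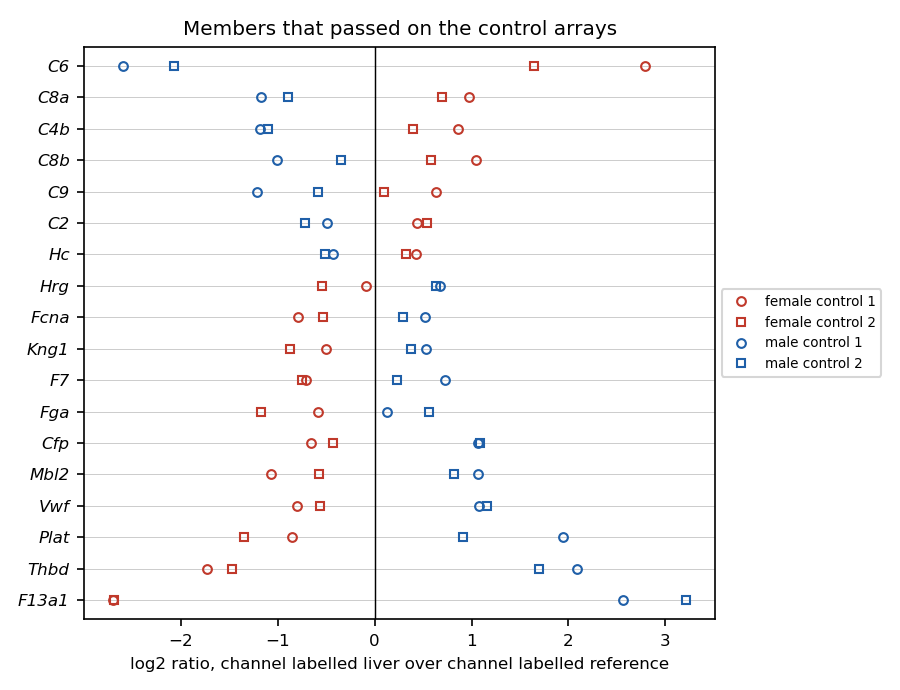
Log2 ratio on each control array for the members that passed the test between the labelled sexes, with points for the arrays labelled female and male. Terminal complement genes such as C6 lie above 0 on the arrays labelled female, and F13a1, Thbd and Plat lie below 0 there.

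Other genes of the pathways, outside the member list, leaned to the side of Xist on the control arrays. Of 25 other complement genes, 10 passed towards Xist and 2 opposite, where 21.4% of all genes passed in either direction. Among the 10 were C1qa at 0.87 ± 0.12 and C1qb at 0.91 ± 0.13, chains of the C1q recognition protein made by macrophages (adjusted p 0.00451 and 0.00544). C1qa, C1qb, C1qc and Vsig4 are also counted in the Kupffer cell list above. Itgam, a chain of complement receptor 3, was at 1.08 ± 0.16 and Vsig4, the complement receptor of Kupffer cells, at 0.88 ± 0.13. Susd4, a regulator of complement, was opposite at -1.27 ± 0.10 (adjusted p 0.0006). Of 31 other clotting genes, 10 passed towards Xist and 1 opposite, against the same 21.4% of all genes. Whether either list exceeded that share was not tested. Fgl1, a fibrinogen-like protein of hepatocytes, was at 0.88 ± 0.08 (adjusted p 0.00122), Fgl2, a prothrombin-cleaving relative, at 1.39 ± 0.23 and Gas6, a vitamin K-dependent growth factor, at 1.30 ± 0.23. F2rl3, a thrombin receptor, was the gene opposite, at -1.20 ± 0.20.

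Set side by side, the sex differences under IL1-beta and on the turned control arrays come from different arrays. Their signs matched for 25 of 48 members (52.1%), against 60.9% of all genes, and for 12 of the 18 members called on the control arrays (66.7%), against 74.1% of all genes called there. Terminal complement genes had the same sign in 6 of 6. C6 was at -1.63 under IL1-beta and at -2.28 on the turned control arrays, C4b at -1.01 and -0.88, and Hc at -0.45 and -0.42. Vwf was at 0.78 and 0.90, and Cfp at 0.75 and 0.81. Likeness in size rests on the division by 2, which no label states, and on the scaling. Undivided and as labelled, the control differences were -1.80 for Vwf and -1.62 for Cfp. Under quantile normalization the turned and divided values were 1.84 and 1.68. With exact zeros kept as values, Vwf was at 0.56 and Cfp at 0.81. The members that differed in sign all did so one way: 23 lay towards Xist on the control arrays and were lower in females under IL1-beta, and 0 the other way. Over the members Pearson's r was 0.395 and Spearman's rho 0.195, a description over 48 genes that share the same arrays.

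**Figure D4:**
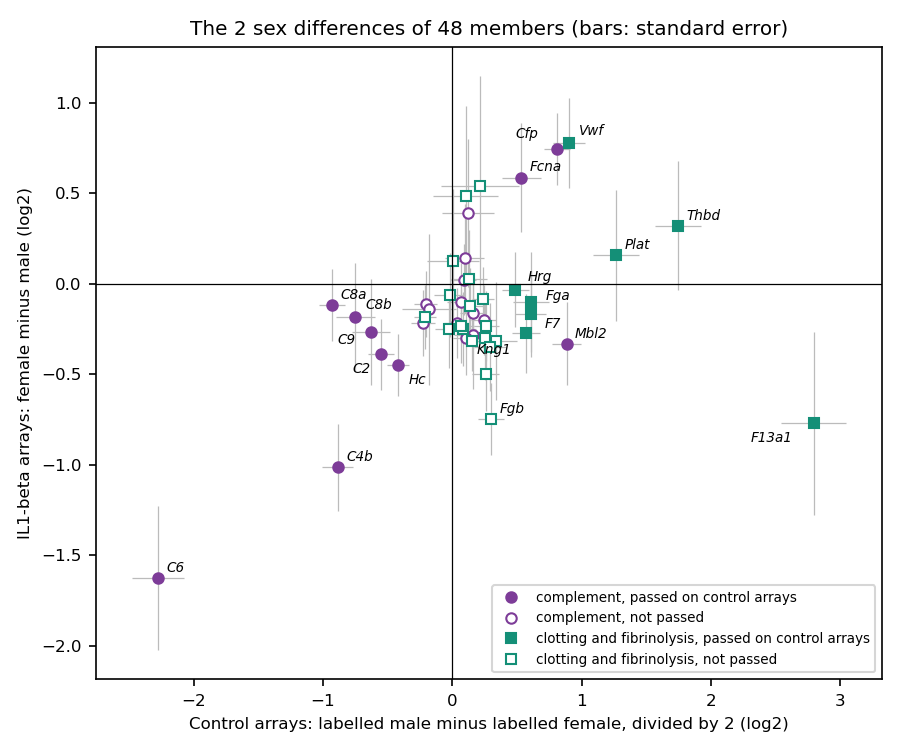
Turned sex difference on the control arrays, divided by 2 (horizontal, log2), against the female minus male difference under IL1-beta (vertical, log2), with 1 point per member and standard errors as bars. Filled points passed on the control arrays, circles are complement genes and squares are clotting genes. C6 lies lowest at -1.63 under IL1-beta, Vwf and Cfp lie in the upper right, and F13a1 at 2.79 and Thbd at 1.75 lie to the right.

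The interaction of sex and treatment asks whether the response differed between the sexes, and its answer depended on the sign and scale given to the control ratios. As labelled, 13 of 48 members passed, 7 higher and 6 lower in females, where 14.3% of all genes passed, with C6 furthest at -6.18 ± 0.56 (adjusted p 0.00151). Without male IL1-beta 1 the count was 8, and without male IL1-beta 2 it was 7. With only the sign of the control ratios turned, 5 of 48 passed, where 3.66% of all genes did: C6 at 2.92 ± 0.56, C8a at 1.75 ± 0.28, Mbl2 at -2.10 ± 0.32, Thbd at -3.17 ± 0.50 and F13a1 at -6.35 ± 0.72 (adjusted p 0.0419, 0.0288, 0.0242, 0.0267 and 0.00883). All 5 had passed as labelled, with the opposite sign. Once that difference was also divided by 2, 0 of 48 passed by limma, where 0.209% of all genes did, and 10 members had an unadjusted p under 0.05, as had 1582 of all genes. F13a1 was closest, at -3.56 ± 0.57 (adjusted p 0.0949), followed by Mbl2 at -1.22 ± 0.26 (0.185) and Fgb at -1.05 ± 0.22 (0.186). F13a1 differed by 2.79 on the turned control arrays, and under IL1-beta it read -2.32 and -3.95 in females against -2.26 and -2.47 in males, which overlapped. C6, at the head as labelled, differed by -1.63 under IL1-beta and by -2.28 on the turned control arrays.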

How the data were processed

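Liver RNA was measured on 8 arrays in 4 groups of 2, grouped by the sample titles. The authors deposited 1 ratio per feature and array, which is taken as log10 of Cy5 over Cy3 from the values, since the base is not given. Agilent Feature Extraction is named per the submitters' processing notes. For its version and its corrections for background and dye, the sources used here give nothing, and channel intensities are not analysed here, so that signal over background is unknown and the number of arrays limits the precision.

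Ratios were multiplied by 3.32 to give log2, values of exactly 0 counted as not measured, and probes with 1 gene symbol in GEO's platform annotation and a value on all arrays were averaged per gene (15346 genes, of which 69 of 76 member probes made 48). The 4 group means were fitted with limma 3.58.1 in R 4.3.3 over all genes (4 residual and 2.88 prior degrees of freedom), with two-sided tests and Benjamini-Hochberg adjustment at 0.05. Named genes are the members that passed, or the smallest p of a role, and up to 6 genes of other pathway lists. Members and lists were chosen with earlier results of these data known, and the sign-turned control difference was added after seeing them. Deviations of same-numbered arrays correlated at -0.430 between the control sexes and -0.407 between the IL1-beta sexes. The main fit did not use the numbers to pair arrays, and these negative values do not show independence. Whether same-numbered control arrays share RNA was not tested. Over all genes, same-numbered control arrays of unlike labels correlated at -0.722 and -0.592, and the other such pairs at -0.478 and -0.519. Under IL1-beta, female 2 correlated at 0.969 with male 1 and at 0.960 with female 1, and the males at 0.973. The main fit took arrays as independent, which was not tested. Alternatives were other normalizations, filters, probe rules, blocks and leaving out each array. The fit was checked on simulated data.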

Additional observations from a re-analysis of the deposited data

Results flagged for a closer look

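The IL1-beta effect differed between the labelled sexes by limma's interaction term (females minus males, log2) for 13 members. It was negative for 6: C6 at -6.18, C4b at -2.78, C8a at -1.98, C8b at -1.68, C2 at -1.49 and Hc at -1.29. It was positive for 7: F13a1 at 4.81, Thbd at 3.81, Plat at 2.69, Vwf at 2.58, Cfp at 2.36, Fcna at 1.65 and Mbl2 at 1.43. All 13 are among the 18 members that differed between the control labels, and all rest on control arrays whose sex labels Xist opposes. With the sign of the control ratios turned and no division, 5 of the 13 passed, each in the opposite direction (C6, C8a, Mbl2, F13a1 and Thbd). After division by 2 as well, 0 of the 13 passed.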

How the results depend on the processing

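The sex difference under IL1-beta gave 0 member calls in all settings run, and the ratio over the pool 46 to 48. The IL1-beta against control count was 44 to 48, and 48 with the control arrays turned. The 18 calls on the control arrays became 30 by quantile normalization and 11 to 18 on leaving out 1 array. The 13 labelled interactions became 20 by quantile normalization and 7 to 10 on leaving out 1 array. The turned interaction gave 4 by quantile normalization and 1, F13a1, at an adjusted p of 0.10, and 0 on leaving out each array. Without the division by 2, an alternative chosen after seeing the data, it gave 5, and 561 over all genes. Over all genes, quantile normalization called 6765 genes on the control arrays against 3284, 4103 against 2189 labelled interactions and 628 against 32 turned ones. Before that step, the standard deviation over genes was 0.66 to 0.74 on the control arrays and 1.99 to 2.07 on the IL1-beta arrays. Why the counts rose was not tested. With the replicate number as a block, the calls were 17 on the control arrays and 10 labelled interactions, and no other count of member calls changed. A crossed block, chosen after seeing the data, gave 18 and 14. For the 18 genes called on the control arrays, 290 of 324 gene results under other settings kept the call, 34 lost it and 0 reversed. Of the 34 losses, 24 came from leaving out an array. By gene, 9 of the 18 kept the call under every setting and 9 lost it under at least 1. Quantile normalization made these 18 differences 1.43 to 2.54 times as large. With exact zeros kept as values, Plat was at 0.77 and Vwf at 0.56 in the turned form, and the other 16 kept their values. Another background correction and a slide block were not run, since intensities and slides are not given in the tables used. With 2 arrays a group, a difference that missed the threshold is not shown to be absent.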

Other observations

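Under IL1-beta, some members separated the arrays across the sexes, with female 2 and male 1 high and female 1 and male 2 low. F8 read 4.05 and 3.75 on the former and 2.96 and 3.01 on the latter, and Cd59a 4.19 and 3.90 against 3.40 and 3.40. Colec10, a collectin that starts the lectin pathway, did so too, at 8.97 and 8.01 against 7.51 and 6.81. For Cd55 a probe at 3.65 and 3.10 against 2.15 and 2.22 had this order, while another had the opposite one, at 1.04 and 1.74 against 4.19 and 4.19. The mean over its probes hides this. These genes were picked after their values were seen, and the pattern was not tested.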
